A study of Mus musculus with 27 samples.

Results

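The 4 immortalized mouse neural stem cell lines labelled wild type (WT) for p53, lines 119, 120, 123 and 331, were set against 2 arrays of normal neural stem cells (NSCs). These 6 arrays were chosen by their labels alone, out of 27 arrays in the series and 12 arrays of cultured cells, and no measured value entered the choice. Each line was profiled once, so a line is 1 array of bulk RNA. A further 6 immortalized lines labelled p53 mutant (lines 3, 28, 31, 59, 95 and 116) were used for a direct comparison of WT with mutant lines. The tumors and the subcutaneous tissue of the series were not used here. The labels give the genotype WT for the 4 lines and for the NSCs alike, so p53 genotype did not separate these groups, while immortalization did. The labels state neither the method of immortalization, nor the passage number, nor the age of the donor animals, and every sample, cultures included, carries the label of the SCID strain CB17/ICR-Prkdcscid/IcrCrl. The WT arrays come from 4 different lines, and the labels call the arrays biological replicates. They do not say whether the lines came from separate animals, or the NSC arrays from separate animals or cultures. A p-value here therefore reflects array-to-array spread only, and the part from the NSCs may be technical.

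Neural stem cells self-renew and give rise to neurons, astrocytes and oligodendrocytes. They carry the intermediate filament nestin, the transcription factor Sox2 and radial glial proteins such as the lipid carrier Fabp7. The tumor suppressor p53 is a transcription factor that Mdm2 and Mdm4 hold in check and that Arf, a product of Cdkn2a, releases from Mdm2. Once active, it induces genes of cell cycle arrest, apoptosis and DNA repair, and immortal lines often lose either p53 or Arf. Trp53, which encodes p53, and its target Cdkn1a were not analysed here, so the WT label was not checked against the transcript of the gene itself.

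Levels are log2 expression values made by the authors with RMA, on which 1 unit is a 2-fold difference. They come with no detection call, so a group whose mean lay under the 25th percentile of the gene means (6.16 in the WT lines, 6.21 in the NSCs) is described as not shown to be above background, and the size of such a change is uncertain. In each gene described, the WT values follow the order of lines 119, 120, 123 and 331 and the NSC values follow the order of arrays 1 and 2. The error of a difference is its standard error (SE) in limma's model of 4 WT lines against 2 NSC arrays, and p-values were adjusted by Benjamini and Hochberg over 19937 genes. Over all genes, Pearson's r between arrays was 0.960 to 0.978 in the 6 pairs of WT lines, 0.904 to 0.925 in the 8 pairs of a WT line with an NSC array and 0.992 between the NSC arrays. The median SD of a gene was 0.18 among the WT lines and 0.095 between the NSC arrays. The array medians lay between 7.18 and 7.28 in the WT lines and at 7.25 and 7.27 in the NSCs.

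The NSC arrays carried the markers of their label. All 7 neural stem cell markers looked at (Sox2, Nes, Fabp7, Pax6, Nr2e1, Prom1 and Hes5) had NSC means above the 25th percentile, and their mean level was 9.38 and 9.41 in the NSC arrays. In the WT lines the mean level of the same markers was 6.80 to 7.39, with 5 of the 7 called lower and the means of 2 (Fabp7 and Prom1) under the 25th percentile. The lines labelled as immortalized NSCs thus differed from the NSCs in 5 of these 7 markers (Sox2, Nes, Fabp7, Nr2e1 and Prom1). Pax6 and Hes5 were not called, and the calls of Sox2 and Nes were lost when either NSC array was left out.

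At an adjusted p under 0.05, 1158 genes were higher in the WT lines (5.81% of all genes) and 1232 were lower (6.18%), 12% in all. A difference of over 1 on the log2 scale was seen in 1267 of them, 599 higher and 668 lower. In all called genes the 4 WT lines lay on the same side of both NSC arrays, which was also the case for 34.2% of all genes. The number of calls rested on the NSC arrays: without NSC 1 it was 816 and without NSC 2 it was 904. Leaving out a WT line gave 1947 to 2823 calls. In bulk RNA, fewer cells of a type and less RNA per cell cannot be told apart.

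Among the genes with the largest increases were Anxa1, S100a6, Acta2 and Lox, and among those with the largest decreases were Fabp7, Gpm6a, Ptprz1 and Gria2. Anxa1, which encodes annexin A1, a calcium-dependent phospholipid-binding protein, had levels of 12.23, 12.33, 12.50 and 12.62 in the WT lines, against 6.05 and 5.67 in the NSCs. The WT lines stood close together and far above both NSC arrays, where the gene was not shown to be above background, and the difference was 6.56 ± 0.16 (SE, adjusted p = 2.65e-06). Fgf7, a fibroblast growth factor made by mesenchymal cells and received by epithelia, reached 12.50, 12.80, 11.99 and 12.95 in the WT lines, against 6.30 and 6.55 in the NSCs, a difference of 6.14 ± 0.26 (SE, adjusted p = 1.32e-05). Line 123 was the lowest of the 4 and still far above the NSCs. S100a6, a calcium-binding protein of proliferating fibroblasts, had 12.40, 12.51, 11.99 and 12.56 in the WT lines and 6.16 and 6.30 in the NSCs, a difference of 6.13 ± 0.18 (SE, adjusted p = 3.02e-06). Ptgs2, the inducible cyclooxygenase of prostaglandin synthesis, had 11.48, 12.30, 11.82 and 11.43 in the WT lines and 5.56 and 6.12 in the NSCs, a difference of 5.92 ± 0.28 (SE, adjusted p = 2.00e-05). Line 120 was the highest here, and no line came near the NSC levels.

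Of the 12 largest increases, 6 (Anxa1, Ptgs2, Lox, Postn, Osmr and Met) had NSC means under the 25th percentile, so the size of these increases is uncertain. Osmr, the receptor subunit for oncostatin M, was one of them, with 11.85, 11.16, 9.39 and 12.15 in the WT lines, against 6.03 and 6.12 in the NSCs. Line 123 lay furthest below the other lines. The difference was 5.06 ± 0.69 (SE, adjusted p = 0.00349), and the call was lost without NSC 1 (adjusted p = 0.0522). Mgp, the matrix Gla protein that inhibits calcification, had 12.48, 12.22, 8.21 and 12.40 in the WT lines and 6.18 and 6.24 in the NSCs. Lines 119, 120 and 331 agreed closely, and line 123 lay between them and the NSCs. Its difference of 5.12 ± 1.16 (SE, adjusted p = 0.0294) was the least certain of the 12. The call was lost without line 119, 120 or 331 (adjusted p = 0.0541, 0.0665 and 0.0613) and without NSC 1 or NSC 2 (adjusted p = 0.199 and 0.196). Without line 123 the difference was 6.16. Mgp was not called under limma's trend and robust settings (adjusted p = 0.0999).

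**Figure D1:**
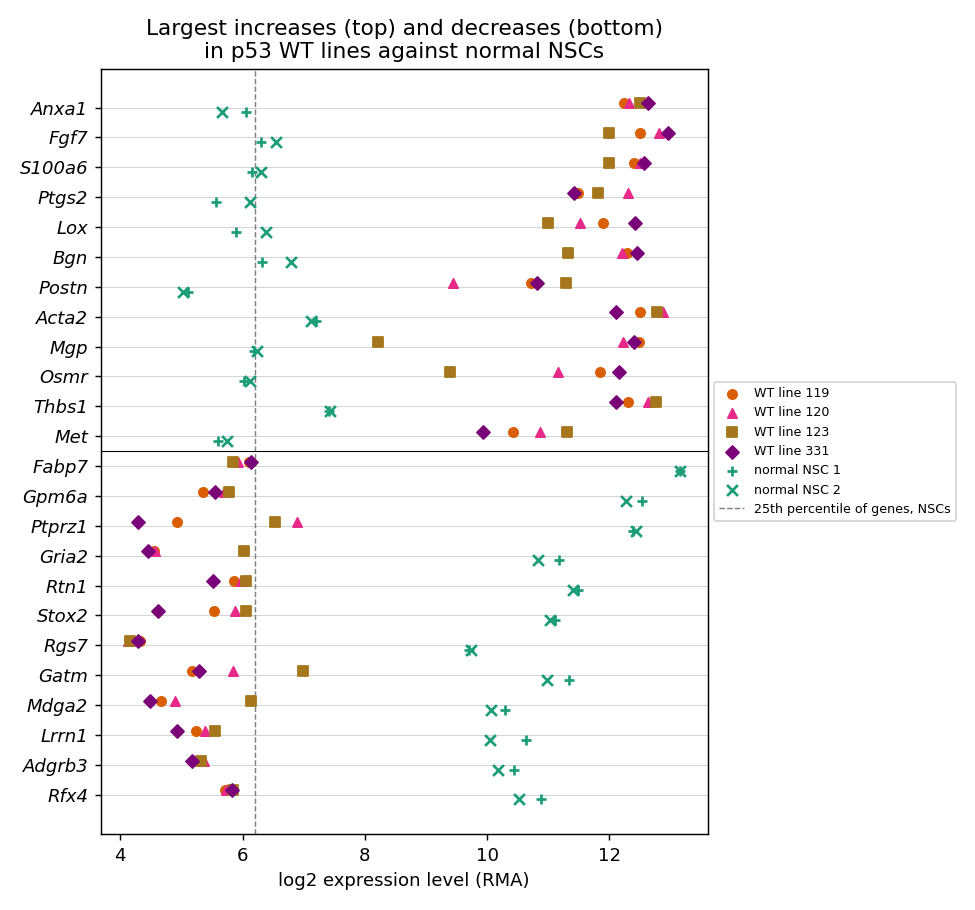
The log2 level of the 12 genes with the largest increases (above the black line) and the 12 with the largest decreases (below it) is plotted for each of the 4 WT lines and the 2 NSC arrays, with the 25th percentile of the NSC gene means as a dashed line. In all 24 genes the lines and the NSCs do not overlap, which was a condition of their choice, and the lines spread most in Mgp, Osmr and Ptprz1.

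Fabp7, the brain fatty acid-binding protein of radial glia, had levels of 6.11, 5.92, 5.84 and 6.14 in the WT lines, against 13.15 and 13.15 in the NSCs. It was not shown to be above background in any WT line, and the difference was -7.15 ± 0.13 (SE, adjusted p = 1.40e-06). Gpm6a, a neuronal membrane glycoprotein of growth cones, had 5.36, 5.70, 5.78 and 5.56 in the WT lines and 12.53 and 12.27 in the NSCs, a difference of -6.80 ± 0.16 (SE, adjusted p = 2.65e-06). Ptprz1, a receptor tyrosine phosphatase of glial progenitors, had 4.92, 6.90, 6.53 and 4.29 in the WT lines and 12.38 and 12.44 in the NSCs, a difference of -6.75 ± 0.70 (SE, adjusted p = 0.00094). Lines 120 and 123 kept higher Ptprz1 levels than lines 119 and 331, and all 4 stayed far below the NSCs. In all 12 of the largest decreases the mean of the WT lines lay under the 25th percentile. Among them were Stox2 (-5.55 ± 0.37) and Rgs7 (-5.49 ± 0.11), a regulator of G protein signalling in neurons. Gatm (-5.34 ± 0.48), the first enzyme of creatine synthesis, and Rfx4 (-4.92 ± 0.14), a transcription factor of brain patterning, were others. Stox2 has 2 probe sets. Leaving out 1 array gave -5.73 to -5.25 for Stox2, and its smallest difference under the other alternatives was -3.99. For Mdga2, another of the 12 and also with 2 probe sets, the smallest was -4.55.

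The called genes were followed through 30 gene lists that cover the p53 pathway, the cell cycle, neural and non-neural cell types and signalling pathways, with 719 genes of which 678 were measured. The median difference of all genes was -0.01. Over all genes 5.81% were called higher and 6.18% lower. Each list count given below is to be read against these shares, also where they are not repeated. The lists were chosen with earlier results of these data known. Their called shares are therefore a description and not independent support. The list medians were highest for smooth muscle contractile genes (1.89), fibroblast and extracellular matrix genes (1.82) and prostaglandin, cytokine and chemokine genes (1.28), and lowest for neural stem cell and radial glia genes (-1.01), astrocyte genes (-0.93) and cholesterol synthesis genes (-0.84).

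**Figure D2:**
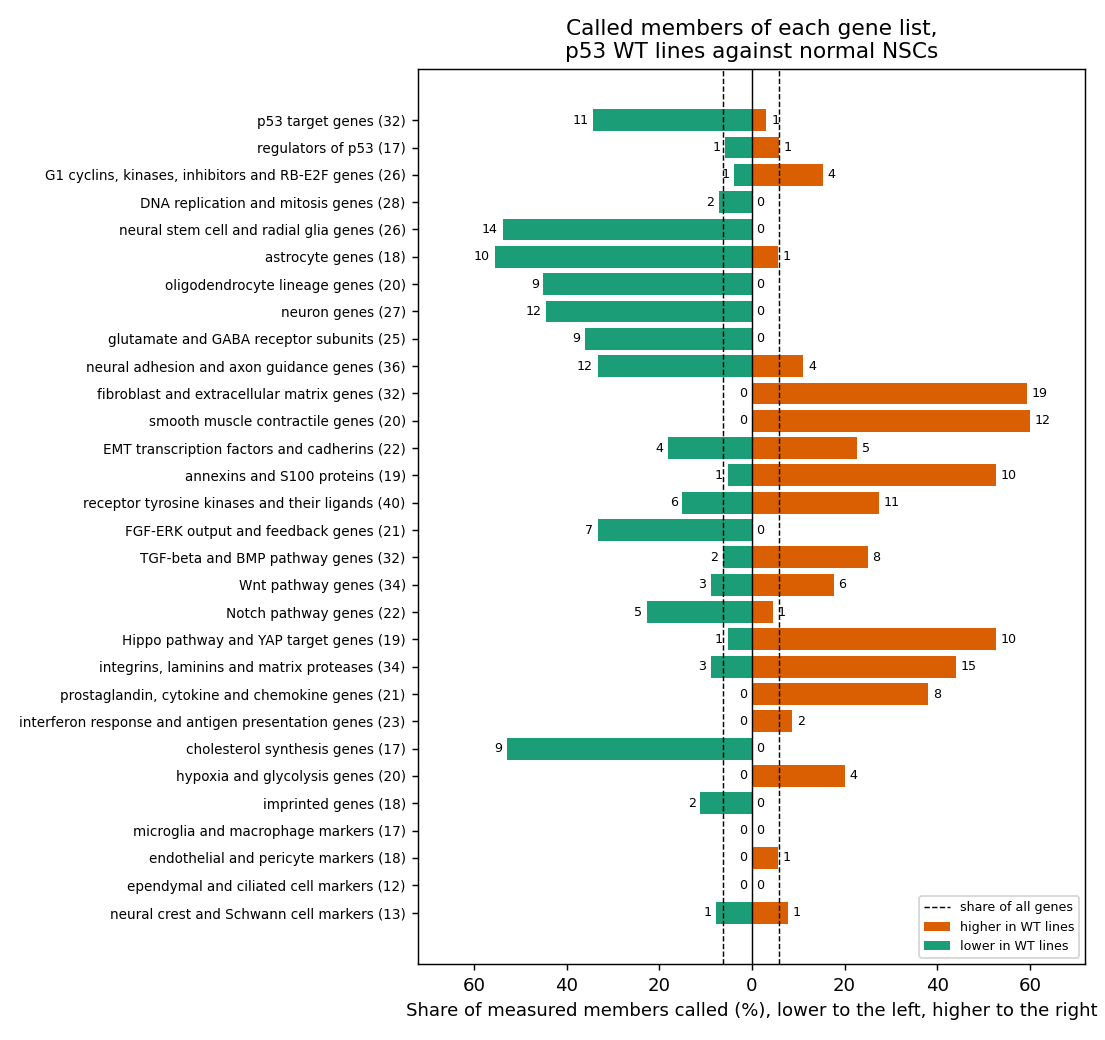
For each of the 30 gene lists, bars give the percentage of measured members (their number in brackets) that were called lower in the WT lines (left) or higher (right), with the number of genes beside each bar and the shares over all genes, 6.18% and 5.81%, as dashed lines. Neural lists extend to the left, with 14 of 26 neural stem cell genes lower, and matrix and contractile lists to the right, with 19 of 32 and 12 of 20 genes higher.

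Among genes that p53 activates, more were called lower than higher in the WT lines against the NSCs. Of 32 measured p53 targets, 11 were called lower and 1 higher (37.5% called, against 12% of all genes), with a list median of -0.46. Eda2r, a receptor of the tumor necrosis factor family, had 5.86, 5.49, 6.12 and 5.81 in the WT lines, against 8.82 and 9.47 in the NSCs, a difference of -3.33 ± 0.23 (SE, adjusted p = 0.000133). Trp53inp1, a nuclear protein that promotes the phosphorylation of p53, had 8.24, 7.78, 7.46 and 7.67 in the WT lines and 10.88 and 10.91 in the NSCs, a difference of -3.11 ± 0.21 (SE, adjusted p = 0.000116). In both genes the lines were far below the NSCs, and in Eda2r they were not shown to be above background. Zmat3, a zinc finger protein that binds RNA, had 8.09, 8.26, 7.89 and 7.42 in the WT lines and 9.92 and 9.70 in the NSCs, with line 331 the lowest (difference -1.89 ± 0.23, SE, adjusted p = 0.00207). Abhd4, a lipase of the abhydrolase family, had 7.81, 7.54, 7.32 and 7.64 in the WT lines and 9.06 and 9.02 in the NSCs (difference -1.46 ± 0.15, SE, adjusted p = 0.000953). Ephx1, the microsomal epoxide hydrolase, was lower as well, with 9.16, 9.85, 10.19 and 9.39 in the WT lines and 11.63 and 11.70 in the NSCs (difference -2.02 ± 0.28, SE, adjusted p = 0.00349), a call lost without NSC 2 (adjusted p = 0.0501).

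The 1 target called higher was Perp, a desmosomal membrane protein linked to apoptosis, with 7.52, 8.43, 8.30 and 8.76 in the WT lines and 6.92 and 6.89 in the NSCs (difference 1.35 ± 0.31, SE, adjusted p = 0.0313). It was named for being the only one, after its value was seen, and its call was lost without line 120 or 123 (adjusted p = 0.0718 and 0.0506) and without NSC 1 or 2 (adjusted p = 0.199 and 0.21). In the fit of all 12 cell arrays it was not called either (adjusted p = 0.213). Among the targets not called, Tnfrsf10b, a death receptor, had 8.18, 8.85, 7.35 and 8.54 in the WT lines and 9.15 and 8.89 in the NSCs (difference -0.79 ± 0.38, SE), and Phlda3 had a difference of -0.55 ± 0.17 (SE, adjusted p = 0.0823). Of the 11 lower targets, 6 were still called without NSC 1 and 4 without NSC 2, and 10 or 11 when a WT line was left out. The same list had a median of -0.34 in the p53 mutant lines against the same NSCs. The direct comparison of WT with mutant lines called none of the 32 targets, and 6 had an unadjusted p under 0.05, which was the case for 8.53% of all genes.

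Of 17 measured regulators of p53, 1 was called higher and 1 lower (11.8%, near the 12% of all genes), with a list median of -0.02. Mdm2, the ubiquitin ligase that degrades p53 and is itself a target of p53, had 8.88, 9.22, 9.32 and 8.86 in the WT lines and 9.46 and 9.39 in the NSCs. All 4 lines were slightly below the NSCs, but the difference of -0.35 ± 0.16 (SE, adjusted p = 0.252) was not called. Mdm4, its partner in restraining p53, was lower with 9.53, 9.29, 9.50 and 9.45 in the WT lines and 10.15 and 10.01 in the NSCs (difference -0.64 ± 0.12, SE, adjusted p = 0.0152), and lost its call without NSC 1 or 2 (adjusted p = 0.16 and 0.0882). Ppm1d, a phosphatase that switches p53 signalling off, and Trp63, a relative of p53, were not called, with differences of -0.45 ± 0.13 and 0.72 ± 0.35 (SE). Without line 123, in which Trp63 was as low as in the NSCs, both were called (adjusted p = 0.0387 for Ppm1d and 0.0314 for Trp63).

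Transcripts of the Cdkn2a and Cdkn2b genes, which lie side by side and encode the cyclin-dependent kinase inhibitors p16 and p15 and the p53 activator Arf, had means above the 25th percentile in the WT lines. Cdkn2a had levels of 7.81, 7.81, 7.93 and 7.40 in the WT lines, against 6.91 and 7.10 in the NSCs, so all 4 lines were above both NSC arrays (difference 0.73 ± 0.17, SE, adjusted p = 0.0316). Its probe set does not tell p16 from Arf. Cdkn2b had 9.19, 9.11, 9.44 and 8.84 in the WT lines and 7.92 and 7.999 in the NSCs (difference 1.19 ± 0.17, SE, adjusted p = 0.0044). Without NSC 1 or 2 neither call held (adjusted p = 0.253 and 0.145 for Cdkn2a, 0.0649 and 0.0505 for Cdkn2b), nor did that of Cdkn2a without line 119 or 120 (adjusted p = 0.0671 and 0.0744). Cdk6, a kinase that these inhibitors bind, was higher too, with 10.10, 10.38, 10.81 and 10.10 in the WT lines and 9.03 and 8.64 in the NSCs (difference 1.51 ± 0.23, SE, adjusted p = 0.00542, and 0.0792 without NSC 2). In the fit of all 12 cell arrays Cdkn2b was not called (adjusted p = 0.0593).

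In the whole list of G1 cyclins, kinases, inhibitors and genes of the Rb and E2F families, 4 of 26 were called higher and 1 lower (19.2%, against 12% of all genes), with a median of -0.14. The other two with calls were E2f4 (difference 0.71 ± 0.13, SE, adjusted p = 0.0109) and E2f2 (difference -0.50 ± 0.11, SE, adjusted p = 0.0315), a repressor and an activator of the E2F family. Neither call held without NSC 1 (adjusted p = 0.0526 and 0.27) or NSC 2 (adjusted p = 0.134 and 0.111), and E2f2 was not called without line 119 or 120 (adjusted p = 0.0648 and 0.0726). The D-type cyclins, which activate Cdk4 and Cdk6, varied between lines. Ccnd1 had 11.18, 11.37, 12.31 and 9.74 in the WT lines and 12.50 and 12.40 in the NSCs, with line 123 close to the NSCs and line 331 far below, and was not called (difference -1.30 ± 0.60, SE, adjusted p = 0.249). Ccnd2 had 11.10, 11.46, 11.52 and 9.80 in the WT lines and 11.76 and 11.89 in the NSCs, again lowest in line 331 and not called (adjusted p = 0.33). Rb1, the retinoblastoma gene, had 9.51, 8.90, 7.63 and 8.61 in the WT lines and 10.16 and 9.97 in the NSCs. Line 123 stood lowest, and the difference of -1.40 ± 0.45 (SE, adjusted p = 0.0959) was called without line 119 (adjusted p = 0.03) or without line 123 (adjusted p = 0.0425).

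**Figure D3:**
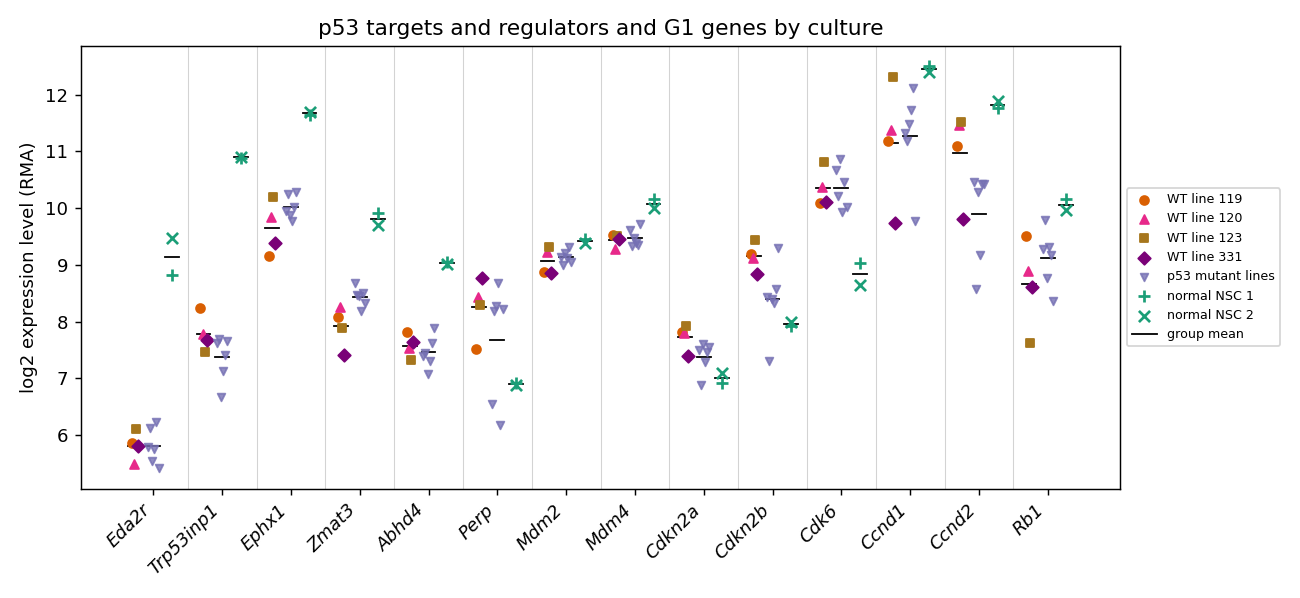
Log2 levels of 14 genes (p53 targets, p53 regulators and G1 genes) are plotted for each WT line, each p53 mutant line and each NSC array, with black bars for the group means. Eda2r, Trp53inp1, Ephx1, Zmat3 and Abhd4 lie below the NSCs in both sets of lines, and Cdkn2b lies at 8.84 to 9.44 in the WT lines and at 7.32 to 9.30 in the mutant lines.

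Of 28 measured genes of DNA replication and mitosis, 2 were called lower and none higher at an adjusted p under 0.05 by limma (1 at an unadjusted p under 0.05), with a median of -0.01. The called share was 7.14%, against 12% of all genes. Mki67, which encodes the proliferation antigen Ki-67, had 10.54, 10.28, 10.18 and 10.30 in the WT lines, against 11.03 and 10.89 in the NSCs (difference -0.64 ± 0.14, SE, adjusted p = 0.023). Rrm2, a subunit of ribonucleotide reductase, had 9.98, 9.53, 10.12 and 9.35 in the WT lines and 10.98 and 10.87 in the NSCs (difference -1.18 ± 0.23, SE, adjusted p = 0.0157). Both were below the NSCs in every line, and both calls were lost without NSC 1 or 2 (adjusted p = 0.206 and 0.121 for Mki67, 0.15 and 0.119 for Rrm2), as was that of Mki67 without line 120 (adjusted p = 0.0588). The spindle motor Kif11 (-0.41 ± 0.13) and the thymidylate synthase Tyms (0.37 ± 0.12) were not called, although without line 123 the adjusted p of Kif11 reached 0.05. Myc, the growth-promoting transcription factor, had 10.82, 11.40, 11.60 and 11.14 in the WT lines and 10.96 and 10.94 in the NSCs, which overlap, and was not called (adjusted p = 0.509). In the fit of all 12 cell arrays Mki67 was not called (adjusted p = 0.0887).

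Neural stem cell and radial glia genes were lower in the WT lines. Of 26 measured, 14 were called lower and none higher by limma (1 at an unadjusted p under 0.05), with a median of -1.01, and 7 of the 14 were still called without NSC 1 and 8 without NSC 2. Nr2e1, the orphan receptor Tlx that maintains adult neural stem cells, had 6.90, 6.71, 6.97 and 6.63 in the WT lines and 8.90 and 8.66 in the NSCs (difference -1.98 ± 0.15, SE, adjusted p = 0.000182). Prom1, which encodes the stem cell antigen CD133, had 5.43, 5.50, 5.57 and 5.42 in the WT lines and 7.15 and 7.69 in the NSCs (difference -1.94 ± 0.16, SE, adjusted p = 0.000352). In both the 4 lines stood close together below the NSCs, and Prom1 was not shown to be above background in them. Ednrb, the endothelin receptor B, had 5.83, 6.13, 8.26 and 6.09 in the WT lines and 10.82 and 10.53 in the NSCs, with line 123 well above the other lines (difference -4.10 ± 0.64, SE, adjusted p = 0.00612, and 0.0804 or 0.0635 without NSC 1 or 2).

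Sox2 and Nes had WT means above the 25th percentile and below the NSCs. Sox2, a transcription factor of neural progenitors, had 8.52, 8.495, 7.28 and 7.16 in the WT lines and 9.80 and 9.56 in the NSCs. Lines 119 and 120 were higher than lines 123 and 331, and all were under the NSCs (difference -1.82 ± 0.43, SE, adjusted p = 0.0337). Nes, which encodes nestin, had 8.24, 9.17, 8.11 and 8.20 in the WT lines and 9.78 and 9.79 in the NSCs, with line 120 the highest of the lines (difference -1.36 ± 0.29, SE, adjusted p = 0.0246). Both calls were lost without NSC 1 (adjusted p = 0.241 for Sox2 and 0.173 for Nes) and NSC 2 (adjusted p = 0.186 and 0.18), and that of Nes without line 331 (adjusted p = 0.0516). Pax6, a transcription factor of radial glia, had 6.89, 7.89, 8.58 and 6.18 in the WT lines and 8.81 and 8.499 in the NSCs. Line 123 lay within the NSC range and line 331 near the 25th percentile, and Pax6 was not called (adjusted p = 0.264). Msi1, an RNA-binding protein of neural progenitors, had 7.21, 7.29, 7.27 and 6.11 in the WT lines and 8.17 and 8.03 in the NSCs (difference -1.13 ± 0.34, SE, adjusted p = 0.0763). Line 331 stood apart below the other lines, and without it the difference was -0.84 and called (adjusted p = 0.00608). Sox2 was not called under limma's trend and robust settings (adjusted p = 0.0578), nor Nes in the fit of all 12 cell arrays (adjusted p = 0.141).

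Astrocyte genes were lower in the WT lines as well, with 10 of 18 called lower and 1 higher and a median of -0.93. Aldoc, the brain aldolase, had 6.80, 7.07, 7.04 and 6.93 in the WT lines and 11.24 and 11.18 in the NSCs (difference -4.24 ± 0.12, SE, adjusted p = 3.02e-06). Sparcl1, a secreted glycoprotein of astrocytes, had 8.37, 7.08, 6.52 and 8.01 in the WT lines and 11.52 and 12.03 in the NSCs, with lines 119 and 331 above lines 120 and 123 (difference -4.28 ± 0.49, SE, adjusted p = 0.00158). Mlc1 (difference -4.10 ± 0.14, SE) and Atp1b2 (difference -3.81 ± 0.15, SE), membrane proteins of astrocytes, fell alike. Slc1a3, the glutamate transporter of radial glia and astrocytes, had 8.81, 10.33, 7.06 and 8.96 in the WT lines and 11.86 and 11.81 in the NSCs, from line 120 at the top to line 123 at the bottom. Its difference of -3.04 ± 0.75 (SE, adjusted p = 0.0398) was not called without line 119 or 331 (adjusted p = 0.0687 and 0.0719) or without NSC 1 or 2 (adjusted p = 0.239 and 0.235). Slc1a3 was not called after centring the arrays (adjusted p = 0.0509) or under limma's trend and robust settings (adjusted p = 0.12). Gfap, the filament protein of mature astrocytes, was low in both groups, with 6.30, 6.46, 6.42 and 6.15 in the WT lines and 6.17 and 6.51 in the NSCs, and did not differ beyond its spread (adjusted p = 0.995). The 1 gene called higher was Gja1, the gap junction protein connexin 43, which many other cell types also make, with 9.86, 10.70, 10.73 and 10.59 in the WT lines and 9.25 and 9.38 in the NSCs (difference 1.15 ± 0.25, SE, adjusted p = 0.0255). Gja1 was named after its value was seen, and its call was lost without line 120 or 331 (adjusted p = 0.0598 and 0.0539) and without NSC 1 or 2 (adjusted p = 0.203 and 0.157).

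In the oligodendrocyte lineage 9 of 20 genes were called lower and none higher by limma (0 at an unadjusted p under 0.05), with a median of -0.34. Olig1 and Olig2 are the transcription factors that specify the lineage. Olig2 had 6.22, 6.07, 6.36 and 6.03 in the WT lines, against 10.07 and 9.63 in the NSCs (difference -3.68 ± 0.17, SE, adjusted p = 1.65e-05). Olig1 had 6.24, 6.46, 6.37 and 6.15 in the WT lines, against 10.23 and 9.999 in the NSCs (difference -3.81 ± 0.14, SE, adjusted p = 7.08e-06). Both were near the 25th percentile in all 4 lines. Ncan and Bcan, the chondroitin sulfate proteoglycans neurocan and brevican of the brain matrix, differed by -3.87 ± 0.15 and -3.12 ± 0.17 (SE, adjusted p = 9.79e-06 and 3.81e-05). Lhfpl3 differed by -3.59 ± 0.61 (SE, adjusted p = 0.00945), a call lost without NSC 1 or 2 (adjusted p = 0.12 and 0.0511). Pdgfra, the PDGF receptor alpha of oligodendrocyte progenitors and of mesenchymal cells, went the other way in some lines, with 11.65, 8.92, 8.21 and 11.37 in the WT lines and 8.73 and 7.23 in the NSCs. Lines 119 and 331 were far above the NSCs and line 123 lay between them, so the groups overlapped and Pdgfra was not called (adjusted p = 0.286). Cspg4, the NG2 proteoglycan, was not called either (difference -0.43 ± 0.16, SE).

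Neuronal genes were lower too, with 12 of 27 called lower, none higher by limma (2 at an unadjusted p under 0.05), and a median of -0.70. Rtn1, a reticulon of the neuronal endoplasmic reticulum, had 5.86, 5.98, 6.05 and 5.52 in the WT lines and 11.49 and 11.40 in the NSCs (difference -5.59 ± 0.17, SE, adjusted p = 3.44e-06). Gap43, a growth cone protein, had 7.33, 7.94, 8.13 and 7.84 in the WT lines and 11.68 and 11.67 in the NSCs (difference -3.86 ± 0.22, SE, adjusted p = 4.68e-05), so it remained above the 25th percentile in all lines. Elavl4, a neuronal RNA-binding protein, and Nefm, the medium neurofilament, differed by -3.44 ± 0.30 and -2.21 ± 0.25 (SE, adjusted p = 0.000438 and 0.00138), with WT means under the 25th percentile. Other neuronal genes differed between lines. Stmn2, which binds tubulin in growing axons, had 6.23, 9.44, 10.59 and 7.24 in the WT lines and 6.05 and 6.18 in the NSCs, high in lines 120 and 123 and not called (adjusted p = 0.281). Tubb3, the neuronal beta-tubulin, had 9.39, 7.98, 9.89 and 8.28 in the WT lines and 7.22 and 7.12 in the NSCs, above the NSCs in all 4 lines (difference 1.72 ± 0.51, SE, adjusted p = 0.077, and 0.0376 without line 120). Map2, a microtubule-associated protein of dendrites, had 6.29, 8.73, 9.96 and 9.27 in the WT lines and 11.36 and 11.22 in the NSCs (difference -2.73 ± 0.89, SE, adjusted p = 0.102). It was lowest in line 119, and it was called without that line (adjusted p = 0.013) or without line 123 (adjusted p = 0.0478). The NSC mean of Stmn2 and the WT mean of Rtn1 lay under the 25th percentile.

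Subunits of glutamate and GABA receptors, which receive fast and slow synaptic signals, were called lower in 9 of 25 cases and higher in none by limma (0 at an unadjusted p under 0.05), with a median of -0.34. Gria2, the AMPA receptor subunit that limits calcium entry, had 4.56, 4.57, 6.02 and 4.46 in the WT lines, against 11.17 and 10.83 in the NSCs (difference -6.09 ± 0.43, SE, adjusted p = 0.000155). Line 123 lay above the other 3 lines but was still under the 25th percentile. The metabotropic receptors Grm5 and Grm3 differed by -4.17 ± 0.15 and -3.67 ± 0.16 (SE, adjusted p = 6.82e-06 and 1.45e-05), and the GABA receptor subunits Gabrg1 and Gabra2 by -4.84 ± 0.15 and -3.90 ± 0.16 (SE, adjusted p = 3.48e-06 and 1.22e-05). In all of these the WT means were under the 25th percentile. Not all subunits were low: Gria3 had 9.21, 10.64, 10.28 and 7.76 in the WT lines and 10.89 and 10.73 in the NSCs, and Gria1 had 6.08, 9.93, 6.55 and 7.44 in the WT lines and 7.15 and 7.09 in the NSCs. Neither was called (adjusted p = 0.335 for Gria3 and 0.888 for Gria1), and the Gria1 difference of 0.38 ± 0.95 (SE) turned to -0.43 without line 120.

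Among neural adhesion and axon guidance genes, 12 of 36 were lower and 4 were higher (median -0.32). Chl1, a close homolog of the adhesion molecule L1, had 5.45, 5.38, 5.50 and 5.40 in the WT lines and 10.50 and 10.003 in the NSCs (difference -4.82 ± 0.16, SE, adjusted p = 4.69e-06). Mdga2 had 4.67, 4.90, 6.13 and 4.49 in the WT lines and 10.29 and 10.06 in the NSCs (difference -5.13 ± 0.43, SE, adjusted p = 0.000329). Line 123 was the highest in both. Cntn1 (contactin 1), Ncam2 and Lrrn1 differed by -4.59 ± 0.24, -3.71 ± 0.29 and -5.06 ± 0.22 (SE, adjusted p = 3.47e-05, 0.000241 and 1.46e-05). The 4 higher ones were named after their values were seen. Slit2, a secreted repellent of axon guidance, had 9.40, 10.18, 9.10 and 10.10 in the WT lines and 6.31 and 6.16 in the NSCs (difference 3.46 ± 0.31, SE, adjusted p = 0.00049). Its call held without either NSC array. Those of the ephrin Efna5 (2.22 ± 0.35) and the semaphorin receptors Nrp1 (1.41 ± 0.28) and Nrp2 (1.32 ± 0.30) were lost without NSC 1 (adjusted p = 0.0873, 0.122 and 0.187) and NSC 2 (adjusted p = 0.0535, 0.164 and 0.205), and Nrp2 was not called without line 119 (adjusted p = 0.0577). The semaphorins Sema3c and Sema5a were above the NSCs in every line, at 11.57, 9.45, 8.60 and 11.03 and 9.54, 8.73, 7.78 and 9.69 in the WT lines, against 7.60 and 7.63 and 7.57 and 7.43 in the NSCs. They were not called (adjusted p = 0.08 and 0.122), but they were without line 123 (adjusted p = 0.016 and 0.00852). The WT means of Chl1, Mdga2, Cntn1, Ncam2 and Lrrn1 lay under the 25th percentile.

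Fibroblast and extracellular matrix genes were higher in the WT lines, with 19 of 32 called higher (59.4%, against 5.81% of all genes), none lower by limma (0 at an unadjusted p under 0.05) and a median of 1.82. Of the 19, 11 were still called without NSC 1 and 11 without NSC 2. Lox, the lysyl oxidase that crosslinks collagen and elastin, had 11.89, 11.51, 11.002 and 12.41 in the WT lines, against 5.90 and 6.38 in the NSCs (difference 5.56 ± 0.36, SE, adjusted p = 0.000102). Bgn, the proteoglycan biglycan, had 12.28, 12.21, 11.33 and 12.45 in the WT lines and 6.32 and 6.78 in the NSCs (difference 5.51 ± 0.31, SE, adjusted p = 5.13e-05). Postn, the adhesion protein periostin, had 10.72, 9.44, 11.29 and 10.81 in the WT lines and 5.11 and 5.03 in the NSCs (difference 5.50 ± 0.45, SE, adjusted p = 0.000316). In each of these the least responsive line was far above the NSCs: line 123 for Lox and Bgn and line 120 for Postn. Thbs1, the matricellular protein thrombospondin 1, had 12.30, 12.63, 12.76 and 12.10 in the WT lines and 7.41 and 7.44 in the NSCs (difference 5.02 ± 0.20, SE, adjusted p = 9.79e-06). The NSC means of Lox and Postn lay under the 25th percentile.

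Other matrix genes were high in some lines only. Dcn, the proteoglycan decorin, had 11.67, 9.32, 6.60 and 10.58 in the WT lines and 5.97 and 6.11 in the NSCs, whose mean lay under the 25th percentile. It was high in lines 119 and 331 and close to the NSCs in line 123, and was not called (difference 3.501 ± 1.21, SE, adjusted p = 0.122), but it was without line 123 (adjusted p = 0.0049). Thbs2 had 11.45, 8.32, 8.14 and 10.46 in the WT lines and 6.45 and 6.82 in the NSCs, with lines 119 and 331 again on top (difference 2.96 ± 0.91, SE, adjusted p = 0.0859, and 0.0392 without line 123). Of 6 fibroblast markers, the collagens Col1a1 (9.62 to 10.18 in the WT lines, 7.79 and 7.91 in the NSCs) and Col1a2 (10.55 to 11.18 in the WT lines, 6.80 and 7.17 in the NSCs) were called higher. Lum and Dpt, further markers of fibroblasts, stayed under the 25th percentile in both groups. The fibroblast markers averaged 7.47 to 8.82 in the WT lines and 6.21 and 6.44 in the NSCs, and the part of other cells in the cultures was not tested.

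Smooth muscle contractile genes were higher in 12 of 20 cases and lower in none by limma (0 at an unadjusted p under 0.05), with a median of 1.89, and 11 of the 12 were still called without NSC 1 and 9 without NSC 2. Acta2, smooth muscle actin, had 12.49, 12.88, 12.78 and 12.10 in the WT lines, against 7.20 and 7.11 in the NSCs (difference 5.41 ± 0.22, SE, adjusted p = 1.05e-05). Cnn2, the actin-binding protein calponin 2, had 10.15, 10.46, 10.32 and 10.43 in the WT lines and 6.46 and 6.01 in the NSCs (difference 4.10 ± 0.17, SE, adjusted p = 1.05e-05). In both the 4 lines stood within 1 unit of each other. Tpm2, a tropomyosin, had 10.54, 10.81, 9.80 and 11.33 in the WT lines and 7.30 and 7.36 in the NSCs (difference 3.29 ± 0.37, SE, adjusted p = 0.00134). Myl9, a myosin regulatory light chain, had 9.99, 10.51, 9.52 and 10.70 in the WT lines and 7.03 and 6.94 in the NSCs (difference 3.20 ± 0.31, SE, adjusted p = 0.000717). Tagln, which encodes the actin-binding protein transgelin, had 9.94, 10.66, 9.95 and 9.26 in the WT lines and 6.72 and 7.18 in the NSCs (difference 3.01 ± 0.35, SE, adjusted p = 0.00161). Line 123 was lowest for Tpm2 and Myl9 and line 331 for Tagln. The late smooth muscle genes Cnn1 and Actg2 were above the NSCs in all lines but uneven, at 7.51, 8.16, 8.44 and 10.16 and 6.75, 8.71, 7.89 and 9.17 in the WT lines, against 6.08 and 6.64 and 6.10 and 5.82 in the NSCs. They were not called (adjusted p = 0.0732 and 0.0602), though Cnn1 was without line 119 or 331 (adjusted p = 0.0356 and 0.0177) and Actg2 without line 119 (adjusted p = 0.00504). For Actg2 the NSC mean lay under the 25th percentile.

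Many contractile genes are targets of serum response factor, which binds the CArG box, a run of A and T between a pair of C and a pair of G. The CArG box was searched on both strands in the 250 bases before the transcription start of RefSeq genes (GRCm38.p6). It was found in 4 of the 16 contractile genes with such a sequence (25%), and in 1.62% of 27025 genes. The motifs searched here and below, and the gene Vcl, were chosen after values were seen. A match says that these letters are present, not that a factor binds. The promoters of 3 matching genes that were higher in the lines, Cnn2 (+ strand of chr10:79988350-79988599), Myl9 (+ strand of chr2:156775214-156775463) and Vcl (+ strand of chr14:20929148-20929397), are shown 5′ to 3′ in that order, with the CArG box in capitals. Vcl encodes vinculin, a protein of focal adhesions, and differed by 2.21 ± 0.26 (SE).
Cnn2: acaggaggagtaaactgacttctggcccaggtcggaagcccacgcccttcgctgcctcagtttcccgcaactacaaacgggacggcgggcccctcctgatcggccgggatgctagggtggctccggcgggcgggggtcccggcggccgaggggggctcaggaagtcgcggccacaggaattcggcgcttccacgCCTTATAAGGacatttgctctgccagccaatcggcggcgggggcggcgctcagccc
Myl9: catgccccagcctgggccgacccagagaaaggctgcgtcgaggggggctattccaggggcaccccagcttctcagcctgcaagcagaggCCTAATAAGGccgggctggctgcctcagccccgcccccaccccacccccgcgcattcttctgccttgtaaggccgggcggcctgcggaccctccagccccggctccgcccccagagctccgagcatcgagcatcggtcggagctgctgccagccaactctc
Vcl: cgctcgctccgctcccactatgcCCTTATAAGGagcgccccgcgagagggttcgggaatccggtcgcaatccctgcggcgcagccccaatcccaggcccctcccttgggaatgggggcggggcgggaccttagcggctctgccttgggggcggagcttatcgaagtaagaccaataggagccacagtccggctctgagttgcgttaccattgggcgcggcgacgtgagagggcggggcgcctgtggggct

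Annexins and S100 proteins, which bind calcium and, in the case of annexins, membranes, were higher in 10 of 19 cases and lower in 1 (median 0.78). Besides Anxa1 and S100a6, Anxa4 had 10.48, 10.14, 10.73 and 11.09 in the WT lines, against 6.99 and 6.54 in the NSCs (difference 3.85 ± 0.27, SE, adjusted p = 0.000133). Anxa2 had 11.71, 11.79, 11.81 and 11.35 in the WT lines and 8.67 and 8.001 in the NSCs (difference 3.33 ± 0.22, SE, adjusted p = 0.000105). S100a4, a marker of fibroblasts and metastatic cells, had 9.38, 11.18, 10.98 and 11.04 in the WT lines and 6.58 and 7.02 in the NSCs, with line 119 below the other lines (difference 3.84 ± 0.49, SE, adjusted p = 0.00253). The lower one was S100a16 (difference -1.10 ± 0.19, SE, adjusted p = 0.00904), named after its value was seen and not called without NSC 1 or 2 (adjusted p = 0.115 and 0.0535). Anxa8 and S100a3 were above the NSCs in all 4 lines by 1.74 ± 0.68 and 0.61 ± 0.30 (SE) and were not called.

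Transcription factors of the epithelial-mesenchymal transition and cadherins moved in both directions, 5 higher and 4 lower of 22, with a median of 0.08. Snai2, a repressor of E-cadherin, had 10.05, 10.15, 10.003 and 11.08 in the WT lines, against 6.78 and 6.65 in the NSCs, highest in line 331 (difference 3.61 ± 0.30, SE, adjusted p = 0.000341). Twist1 had 9.10, 7.72, 8.80 and 9.63 in the WT lines and 6.22 and 6.15 in the NSCs (difference 2.63 ± 0.46, SE, adjusted p = 0.01). The mesenchymal cadherin Cdh11 had 11.18, 10.85, 9.99 and 11.55 in the WT lines and 8.80 and 8.26 in the NSCs (difference 2.36 ± 0.40, SE, adjusted p = 0.00922). The transcription factors Snai1 (0.62 ± 0.15) and Prrx2 (1.38 ± 0.34) completed the higher ones. Zeb1, which like Snai2 can repress E-cadherin and is made by neural progenitors, was lower, with 10.50, 10.91, 10.02 and 10.72 in the WT lines and 12.11 and 11.98 in the NSCs (difference -1.504 ± 0.24, SE, adjusted p = 0.00632). Cdh4, the retinal cadherin, had 6.95, 6.98, 6.97 and 6.86 in the WT lines and 10.05 and 9.73 in the NSCs (difference -2.95 ± 0.13, SE, adjusted p = 1.42e-05). Cdh13 (-1.31 ± 0.21) and Cdh6 (-0.90 ± 0.20) were lower as well. Without NSC 1 the calls of Twist1, Cdh11, Zeb1, Snai1, Prrx2, Cdh13 and Cdh6 were lost (adjusted p = 0.0963, 0.0619, 0.0838, 0.287, 0.275, 0.0757 and 0.202). Without NSC 2 all of these but Cdh6 were lost (adjusted p = 0.106, 0.119, 0.063, 0.0541, 0.206 and 0.0866). Single lines also decided Snai1 (adjusted p = 0.0741, 0.0529 and 0.0603 without line 119, 120 or 331), Prrx2 (adjusted p = 0.0782, 0.0692 and 0.0686 without line 119, 123 or 331) and Cdh6 (adjusted p = 0.0572 and 0.0648 without line 119 or 120). Snai1, Prrx2, Cdh13 and Cdh6 were named after their values were seen. Cdh10 and Foxc2 were uneven among the lines and not called, with 5.90, 7.53, 10.08 and 6.96 for Cdh10 and 9.77, 6.97, 7.64 and 8.38 for Foxc2 in the WT lines, against 9.83 and 9.76 and 6.72 and 6.54 in the NSCs. Cdh10 was called lower without line 123 (adjusted p = 0.00638). The NSC mean of Twist1 lay under the 25th percentile. In the fit of all 12 cell arrays Cdh11 and Cdh6 were not called (adjusted p = 0.199 and 0.582), nor was Prrx2 under limma's trend and robust settings (adjusted p = 0.0514).

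Receptor tyrosine kinases and their ligands changed in both directions, 11 higher and 6 lower of 40 (median 0.52). Met, the receptor for hepatocyte growth factor, had 10.42, 10.87, 11.30 and 9.94 in the WT lines, against 5.59 and 5.75 in the NSCs, where it was not shown to be above background (difference 4.96 ± 0.34, SE, adjusted p = 0.000133). Its ligand Hgf had 10.04, 8.47, 6.46 and 11.45 in the WT lines and 5.64 and 5.90 in the NSCs. It was high in lines 119 and 331 and near the NSCs in line 123, and was not called (adjusted p = 0.133), but it was without line 123 (adjusted p = 0.0152). Pdgfrb, the PDGF receptor beta of mesenchymal cells and pericytes, had 10.11, 10.08, 9.22 and 10.11 in the WT lines and 6.19 and 6.68 in the NSCs (difference 3.45 ± 0.29, SE, adjusted p = 0.000329). Nrg1, the ErbB ligand neuregulin 1, had 9.95, 9.31, 9.33 and 9.28 in the WT lines and 6.46 and 5.91 in the NSCs (difference 3.29 ± 0.24, SE, adjusted p = 0.000177). Pdgfd, a PDGF receptor ligand, was above the NSCs in every line at 7.54, 10.17, 8.09 and 6.82 in the WT lines, against 5.32 and 5.22 in the NSCs, and was called without line 120 or 331 (adjusted p = 0.0625, 0.0118 without line 120 and 0.0338 without line 331). The NSC means of Nrg1, Hgf and Pdgfd lay under the 25th percentile as well, so the size of these increases is uncertain.

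The receptors that were lower included those of the growth factors on which neural stem cells and neurons depend. Egfr, the receptor for epidermal growth factor, had 9.50, 9.52, 9.85 and 8.999 in the WT lines, against 11.40 and 11.34 in the NSCs (difference -1.90 ± 0.22, SE, adjusted p = 0.00162). Ntrk2, the receptor for brain-derived neurotrophic factor, had 5.49, 5.48, 5.57 and 5.38 in the WT lines and 9.39 and 9.30 in the NSCs (difference -3.87 ± 0.11, SE, adjusted p = 3.02e-06), with all 4 lines under the 25th percentile. Transcripts induced by FGF and ERK signalling, many of which feed back on it, were lower in 7 of 21 cases and higher in none by limma (2 at an unadjusted p under 0.05), with a median of -0.80, and 6 of the 7 were still called without either NSC array. The Ets factors Etv1 and Etv5 are outputs of the pathway. Etv1 had 6.64, 7.77, 7.97 and 7.34 in the WT lines and 10.93 and 11.03 in the NSCs (difference -3.55 ± 0.34, SE, adjusted p = 0.000642). Etv5 differed by -2.55 ± 0.31 (SE, adjusted p = 0.002). The Sprouty proteins inhibit it. Spry4 had 7.21, 7.47, 6.98 and 6.97 in the WT lines and 10.45 and 10.14 in the NSCs (difference -3.14 ± 0.18, SE, adjusted p = 5.18e-05). Spry2 had 7.97, 8.16, 7.49 and 8.23 in the WT lines and 10.28 and 10.52 in the NSCs (difference -2.44 ± 0.22, SE, adjusted p = 0.000453). Spry1 differed by -1.73 ± 0.23 (SE, adjusted p = 0.00279). Fosl1, an AP-1 subunit also induced by ERK, was above the NSCs in all lines by 1.08 ± 0.34 (SE) and was not called (adjusted p = 0.0907), so the list did not move as one.

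In the TGF-beta and BMP pathways 8 of 32 genes were higher and 2 lower (31.25% called, against 12% of all genes, median 0.46). Among the ligands, Inhba, the activin beta A subunit, had 10.47, 10.55, 10.70 and 10.01 in the WT lines, against 6.18 and 5.98 in the NSCs (difference 4.36 ± 0.20, SE, adjusted p = 1.79e-05). Bmp4 had 9.95, 9.86, 9.74 and 8.46 in the WT lines and 6.74 and 6.33 in the NSCs, with line 331 the lowest (difference 2.97 ± 0.41, SE, adjusted p = 0.00375, and 0.0575 without NSC 2). Bmp7 went the other way, with 7.46, 6.83, 6.75 and 6.89 in the WT lines and 9.93 and 9.58 in the NSCs (difference -2.77 ± 0.22, SE, adjusted p = 0.000271). The BMP antagonist Grem1 and the TGF-beta carrier Ltbp1 were higher, by 2.63 ± 0.22 and 2.55 ± 0.18 (SE, adjusted p = 0.000329 and 0.000155). The BMP receptor Bmpr1b, named after its value was seen, was lower (a difference of -1.67 ± 0.24, SE, adjusted p = 0.00406, and 0.0652 without NSC 1). Tgfbr3, a TGF-beta co-receptor, and Chrdl1, a BMP antagonist, were not called. Tgfbr3 had 9.42, 8.10, 7.62 and 9.68 in the WT lines and 6.64 and 6.90 in the NSCs, and was called without line 123 (adjusted p = 0.0193). Chrdl1 had 7.49, 8.73, 10.38 and 7.18 in the WT lines and 9.67 and 9.52 in the NSCs, and was called lower without line 123 (adjusted p = 0.0396), the 1 line above the NSCs. The NSC mean of Inhba lay under the 25th percentile, so the size of its increase is uncertain.

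Wnt pathway genes were higher in 6 of 34 cases and lower in 3 (26.5% called, against 12% of all genes, median 0.05). The Frizzled receptors Fzd6, Fzd2 and Fzd7 were among the higher ones. Fzd6 had 10.01, 10.18, 9.997 and 9.997 in the WT lines, against 6.62 and 6.64 in the NSCs (difference 3.42 ± 0.11, SE, adjusted p = 5.33e-06). Fzd2 had 9.16, 8.72, 9.10 and 8.88 in the WT lines and 7.23 and 7.49 in the NSCs (difference 1.61 ± 0.16, SE, adjusted p = 0.000862). Fzd7 differed by 1.34 ± 0.17 (SE, adjusted p = 0.0025). Fzd9, another Frizzled receptor, was lower (a difference of -0.90 ± 0.14, SE, adjusted p = 0.00559), as were the ligand Wnt7a (-0.83 ± 0.13) and the inhibitor Nkd1 (-0.84 ± 0.20), both named after their values were seen. The secreted inhibitor Sfrp1 had 9.57, 10.45, 9.43 and 8.77 in the WT lines and 7.34 and 7.09 in the NSCs (difference 2.34 ± 0.40, SE, adjusted p = 0.00928). The calls of Sfrp1, Fzd9, Wnt7a and Nkd1 were lost without NSC 1 (adjusted p = 0.0805, 0.0761, 0.0707 and 0.31) and without NSC 2 (adjusted p = 0.11, 0.0575, 0.0673 and 0.0922), and that of Nkd1 without line 120 or 123 (adjusted p = 0.0647 and 0.0575). Fzd3 (-1.67 ± 0.50) and the secreted Dkk3 (1.32 ± 0.40) were not called, but Fzd3 was without line 119 (adjusted p = 0.0373) and Dkk3 without line 119 or 331 (adjusted p = 0.0475 and 0.0154). Sfrp1 was not called in the fit of all 12 cell arrays (adjusted p = 0.22).

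In the Notch pathway, through which neighbouring neural stem cells keep each other undifferentiated, 1 of 22 genes was higher and 5 were lower (median -0.26). The called share was 27.3%, against 12% of all genes. Notch2 had 8.56, 8.97, 8.57 and 8.82 in the WT lines, against 7.26 and 6.98 in the NSCs (difference 1.61 ± 0.16, SE, adjusted p = 0.000846). Notch1 had 7.91, 7.93, 8.28 and 7.57 in the WT lines, against 8.98 and 8.70 in the NSCs (difference -0.92 ± 0.20, SE, adjusted p = 0.0259). Both receptors were thus outside the NSC range in every line, in opposite directions. Dner, a neuronal ligand, had 6.33, 6.47, 6.82 and 6.19 in the WT lines and 9.11 and 8.70 in the NSCs (difference -2.45 ± 0.20, SE, adjusted p = 0.000336). The ligand Dll1 (-0.79 ± 0.15), named after its value was seen, the glycosyltransferase Lfng (-1.38 ± 0.20) and the coactivator Maml2 (-1.36 ± 0.22) were lower. Without NSC 1 the calls of Notch1, Dll1, Lfng and Maml2 were lost (adjusted p = 0.234, 0.113, 0.0656 and 0.0916), without NSC 2 those of Notch1, Dll1 and Maml2 (adjusted p = 0.113, 0.119 and 0.0528), and without line 119 or 120 that of Notch1 (adjusted p = 0.0522 and 0.0584). The target gene Hey2 (1.499 ± 0.43) and the transcription factor Rbpj (1.00 ± 0.36) were above the NSCs in all lines and not called, but Hey2 was without line 119 (adjusted p = 0.0212) and Rbpj without line 123 (adjusted p = 0.0283). For Hey2 the NSC mean lay under the 25th percentile.

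Genes of the Hippo pathway and targets of its effector YAP, which acts with TEAD factors in spread and stretched cells, were higher in 10 of 19 cases and lower in 1, with a median of 0.56. Of the 10, 4 were still called without NSC 1 and 5 without NSC 2. The targets changed most. Ccn1, a matricellular protein also known as Cyr61, had 12.21, 12.60, 11.73 and 11.76 in the WT lines, against 8.07 and 7.80 in the NSCs (difference 4.14 ± 0.26, SE, adjusted p = 7.91e-05). Axl, a receptor tyrosine kinase, had 9.34, 9.58, 10.29 and 9.23 in the WT lines and 6.43 and 6.55 in the NSCs (difference 3.12 ± 0.28, SE, adjusted p = 0.000505). Ccn2, the connective tissue growth factor, had 11.03, 9.91, 10.67 and 9.02 in the WT lines and 7.46 and 7.80 in the NSCs, lowest in line 331 (difference 2.53 ± 0.51, SE, adjusted p = 0.0185, and 0.171 or 0.123 without NSC 1 or 2). Ankrd1, a cardiac and stress-responsive target, had 8.27, 9.29, 10.31 and 6.28 in the WT lines and 5.84 and 6.08 in the NSCs. It was near the NSCs in line 331 and high in the other 3, and was called without line 331 (adjusted p = 0.0118, against 0.149 with it). For Ankrd1 the NSC mean lay under the 25th percentile.

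The kinase Lats2 and its inhibitor Ajuba were higher too. Ajuba had 8.49, 8.57, 8.68 and 8.31 in the WT lines, against 6.66 and 6.23 in the NSCs (difference 2.07 ± 0.17, SE, adjusted p = 0.000275). Lats2 differed by 1.38 ± 0.18 (SE, adjusted p = 0.00281, and 0.0505 without NSC 1). Amotl1, an angiomotin that binds YAP, was the 1 lower gene (difference -0.64 ± 0.16, SE, adjusted p = 0.0449). It was named after its value was seen, and it was not called without NSC 1 or 2 (adjusted p = 0.317 and 0.171) or without line 120, 123 or 331 (adjusted p = 0.0717, 0.0618 and 0.0789). It was not called after centring the arrays (adjusted p = 0.0512) or under limma's trend and robust settings (adjusted p = 0.056). Tead2 was not called (difference 0.45 ± 0.18, SE). TEAD factors bind GGAATG, which read on the other strand is CATTCC. One or the other was present in the 250 bases before the start of 9 of 15 genes of the list with such a sequence (60.0%) and of 14.4% of 27025 genes, and in 8 of 16 contractile genes. The promoter of Ccn1, the gene of the list with the largest change, lies on the - strand of chr3:145649986-145650235 in GRCm38.p6 (RefSeq) and holds it once, in capitals.
Ccn1: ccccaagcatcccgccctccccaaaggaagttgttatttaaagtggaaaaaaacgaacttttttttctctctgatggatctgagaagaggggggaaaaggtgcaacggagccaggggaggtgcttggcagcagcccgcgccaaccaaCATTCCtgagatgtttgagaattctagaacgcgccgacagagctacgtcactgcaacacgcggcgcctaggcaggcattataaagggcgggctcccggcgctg

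Integrins, laminins and matrix proteases with their inhibitors were higher in 15 of 34 cases and lower in 3 (median 1.16), and 7 of the 15 were still called without NSC 1 and 6 without NSC 2. The TIMPs, inhibitors of metalloproteases, were split. Timp1 had 10.47, 10.80, 10.26 and 10.86 in the WT lines, against 7.01 and 7.30 in the NSCs (difference 3.44 ± 0.20, SE, adjusted p = 5.18e-05). Timp2 had 10.98, 11.21, 10.95 and 11.40 in the WT lines, against 7.87 and 8.24 in the NSCs (difference 3.08 ± 0.18, SE, adjusted p = 5.13e-05). Timp3 had 12.03, 12.36, 11.88 and 10.58 in the WT lines, against 8.06 and 7.91 in the NSCs (difference 3.73 ± 0.45, SE, adjusted p = 0.00185). Timp4, known from brain and heart, was lower, with 5.91, 5.91, 6.05 and 5.73 in the WT lines and 10.34 and 9.96 in the NSCs (difference -4.25 ± 0.15, SE, adjusted p = 7.01e-06). So 3 TIMPs lay above the NSCs in every line and 1 below. The integrin subunits Itga4 (difference -3.33 ± 0.37, SE, adjusted p = 0.00138) and Itgb8 (difference -1.63 ± 0.42, SE, adjusted p = 0.0463) were lower. Itgb8, named after its value was seen, was not called without line 120 or 123 (adjusted p = 0.0624 and 0.076) or without NSC 1 or 2 (adjusted p = 0.301 and 0.204). Mmp2, a gelatinase, had 12.16, 10.14, 8.32 and 11.68 in the WT lines and 7.22 and 7.22 in the NSCs, highest in lines 119 and 331, and missed the threshold (adjusted p = 0.0687). The fit of all 12 cell arrays and that without line 123 called it (adjusted p = 0.0309 and 0.00466). The laminin chain Lama2 was above the NSCs in all lines by 2.05 ± 0.55 (SE, adjusted p = 0.0556) and was called without line 119 or 120 (adjusted p = 0.0348 and 0.00497). The WT means of Timp4 and Itga4 lay under the 25th percentile. Itgb8 was not called after centring (adjusted p = 0.0503), after quantile normalization (adjusted p = 0.0517) or under limma's trend and robust settings (adjusted p = 0.0814).

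Of 21 prostaglandin, cytokine and chemokine genes, 8 were higher and none lower by limma (0 at an unadjusted p under 0.05), with a median of 1.28, and 4 of the 8 were still called without NSC 1 and 4 without NSC 2. Cxcl12, the chemokine that attracts cells carrying Cxcr4, had 10.65, 9.97, 9.32 and 9.51 in the WT lines, against 6.25 and 6.02 in the NSCs (difference 3.73 ± 0.35, SE, adjusted p = 0.000554). Csf1, the growth factor of macrophages, had 9.29, 9.97, 10.15 and 9.36 in the WT lines and 6.90 and 7.02 in the NSCs (difference 2.74 ± 0.26, SE, adjusted p = 0.000638). Vcam1, an adhesion molecule for leukocytes, had 10.13, 10.51, 10.20 and 10.09 in the WT lines and 7.66 and 7.74 in the NSCs (difference 2.53 ± 0.15, SE, adjusted p = 5.58e-05). These stood above the NSCs in every line. The cytokine Il6 was low throughout, with 5.84, 7.22, 6.04 and 6.09 in the WT lines and 4.07 and 4.19 in the NSCs, and its difference of 2.17 ± 0.36 (SE, adjusted p = 0.00814) was not called without NSC 1 or 2 (adjusted p = 0.0946 and 0.0806). The chemokine Cxcl5 (1.90 ± 0.63) and the cytokine Il33 (1.77 ± 0.50) were not called, but Cxcl5 was without line 123 (adjusted p = 0.00683) and Il33 without line 119 or 123 (adjusted p = 0.0131 and 0.0441). The NSC means of Cxcl12, Il6 and Cxcl5 lay under the 25th percentile, so the size of these differences is uncertain.

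Interferon response and antigen presentation genes were called higher in 2 of 23 cases (8.70%, near the 5.81% of all genes) and lower in none by limma (2 at an unadjusted p under 0.05), with a median of 0.39. B2m, the light chain of MHC class I, had 12.34, 12.41, 11.81 and 12.44 in the WT lines, against 11.21 and 11.23 in the NSCs (difference 1.03 ± 0.19, SE, adjusted p = 0.0142). The interferon-induced Ifit2 had 8.96, 9.13, 9.11 and 8.68 in the WT lines, against 7.96 and 7.22 in the NSCs (difference 1.38 ± 0.23, SE, adjusted p = 0.00792). Line 123 was the lowest for B2m. The call of B2m was lost without NSC 1 or 2 (adjusted p = 0.13 and 0.123) and that of Ifit2 without NSC 2 (adjusted p = 0.0668). Irf1, a transcription factor of interferon signalling, and Ifitm3, an antiviral membrane protein, were above the NSCs in all lines and just not called (adjusted p = 0.0536 and 0.0565). Both were called without line 123 (adjusted p = 0.0336 and 0.0141), and Irf1 without line 120 (adjusted p = 0.0365).

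Cholesterol synthesis genes were lower in 9 of 17 cases and higher in none by limma (0 at an unadjusted p under 0.05), with a median of -0.84, and 15 of 17 lay below the NSCs in every line (17.2% of all genes did). Of the 9, 2 were still called without NSC 1 and 4 without NSC 2. Dhcr7, the last enzyme of the pathway, had 7.87, 7.79, 7.66 and 7.08 in the WT lines, against 9.87 and 9.55 in the NSCs, lowest in line 331 (difference -2.11 ± 0.23, SE, adjusted p = 0.00131). Hmgcs1, which makes HMG-CoA near its start, had 9.92, 10.44, 10.28 and 9.92 in the WT lines and 11.84 and 11.86 in the NSCs (difference -1.71 ± 0.18, SE, adjusted p = 0.000965). The enzymes Lss and Idi1 differed by -1.41 ± 0.20 and -1.56 ± 0.37 (SE, adjusted p = 0.00452 and 0.0356), and Insig1, which holds the pathway's regulator SREBP in the endoplasmic reticulum, by -1.29 ± 0.23 (SE, adjusted p = 0.0103). Without NSC 1 these 3 calls were lost (adjusted p = 0.0651 for Lss, 0.241 for Idi1 and 0.0999 for Insig1), as were those of Idi1 and Insig1 without NSC 2 (adjusted p = 0.202 and 0.106) and that of Idi1 without line 119 or 331 (adjusted p = 0.0607 and 0.0527). Mvd (-0.84 ± 0.24) and Msmo1 (-0.83 ± 0.39) were below the NSCs in all lines and not called, but Mvd was without line 331 (adjusted p = 0.0319). Idi1 was not called with the mean of its probe sets (adjusted p = 0.078) or under limma's trend and robust settings (adjusted p = 0.0542).

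SREBP acts at such promoters together with the factor NF-Y, which binds the letters CCAAT. On the opposite strand this motif reads as ATTGG. Either form was found in the 250 bases before the start of all 13 genes of the list with such a sequence, in 37.5% of 27025 genes and in 9 of 16 contractile genes. The promoters of the pair named first, Hmgcs1 (+ strand of chr13:119690101-119690350) and Dhcr7 (+ strand of chr7:143829964-143830213), from RefSeq in GRCm38.p6, hold it 3 times and 2 times, in capitals. Dhcr7 has 3 listed starts, of which 1 is shown.
Hmgcs1: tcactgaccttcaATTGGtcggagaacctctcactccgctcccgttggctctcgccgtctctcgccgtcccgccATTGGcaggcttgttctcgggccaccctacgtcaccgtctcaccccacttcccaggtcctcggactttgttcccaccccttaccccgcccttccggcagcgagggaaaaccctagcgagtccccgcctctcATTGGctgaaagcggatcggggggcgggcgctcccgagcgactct
Dhcr7: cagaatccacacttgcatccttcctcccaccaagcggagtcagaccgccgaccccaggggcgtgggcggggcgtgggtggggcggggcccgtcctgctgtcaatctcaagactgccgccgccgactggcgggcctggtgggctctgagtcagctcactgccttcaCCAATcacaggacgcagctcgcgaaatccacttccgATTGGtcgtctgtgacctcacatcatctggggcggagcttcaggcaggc

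Of 20 hypoxia and glycolysis genes, 4 were higher and none lower by limma (1 at an unadjusted p under 0.05) (median 0.20). The called share was 20%, against 12% of all genes. Ndrg1, induced by low oxygen and by differentiation, had 8.99, 8.86, 8.66 and 8.70 in the WT lines, against 7.36 and 7.42 in the NSCs (difference 1.41 ± 0.13, SE, adjusted p = 0.000576). P4ha1 and P4ha2 are catalytic subunits of prolyl hydroxylase, which prepares collagen. They differed by 1.58 ± 0.26 and 2.28 ± 0.55 (SE, adjusted p = 0.00766 and 0.0355), and the glucose transporter Slc2a1 by 0.78 ± 0.18 (SE, adjusted p = 0.0347). The calls of P4ha1, P4ha2 and Slc2a1 were lost without NSC 2 (adjusted p = 0.105, 0.205 and 0.304). Those of P4ha2 and Slc2a1 were lost without NSC 1 (adjusted p = 0.238 and 0.0751) or without line 331 (adjusted p = 0.0737 and 0.0627), and that of Slc2a1 without line 120 (adjusted p = 0.0789). The hypoxia-inducible Egln3 and Pdk1 went in opposite directions (-0.95 ± 0.34 and 0.64 ± 0.22) and were not called. The 4 called members thus include the prolyl hydroxylase subunits P4ha1 and P4ha2 and a glucose transporter. P4ha2 was not called under limma's trend and robust settings (adjusted p = 0.0839), nor Slc2a1 in the fit of all 12 cell arrays (adjusted p = 0.0819).

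Among imprinted genes 2 of 18 were lower and none higher by limma (1 at an unadjusted p under 0.05), with a median of -0.15. The called share of 11.1% was near the 12% of all genes. Nap1l5, a paternally expressed gene related to nucleosome assembly proteins, had 6.46, 6.18, 6.63 and 6.16 in the WT lines, against 9.82 and 9.19 in the NSCs (difference -3.15 ± 0.22, SE, adjusted p = 0.000133). Ndn, the growth suppressor necdin, had 5.98, 5.99, 7.56 and 6.20 in the WT lines and 8.76 and 9.36 in the NSCs, with line 123 apart from the others (difference -2.63 ± 0.45, SE, adjusted p = 0.00966, and 0.0648 or 0.121 without NSC 1 or 2). Mest and Peg3 depended on the line. Mest had 11.001, 8.79, 11.38 and 6.92 in the WT lines and 12.28 and 12.27 in the NSCs. It was below the NSCs in every line, least so in lines 119 and 123 and most in line 331, and was not called by limma (adjusted p = 0.203). Peg3 had 8.60, 6.05, 5.95 and 6.36 in the WT lines and 9.005 and 8.88 in the NSCs, close to the NSCs in line 119 and far lower in the other 3 (adjusted p = 0.0954, and 0.000146 without line 119).

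Markers of other cell types that a culture could hold were looked at next. None of 17 microglia and macrophage markers and none of 12 ependymal markers was called by limma (3 and 0 at an unadjusted p under 0.05), with medians of 0.03 and -0.07, and 6 defining microglia markers averaged 6.16 to 6.37 in the WT lines and 6.10 and 6.28 in the NSCs. Tmem119, known in brain from microglia, was higher in 3 lines, with 8.56, 8.02, 7.28 and 8.69 in the WT lines and 6.92 and 7.33 in the NSCs. It was not called (adjusted p = 0.153), but it was without line 123 (adjusted p = 0.0146), and Cd14 was not called (difference 0.52 ± 0.18, SE). The 5 endothelial markers averaged 6.19 to 6.43 in the WT lines and 6.21 and 6.34 in the NSCs. Of 18 endothelial and pericyte genes the 1 called was Pdgfrb (5.56%, against 12% of all genes). The 5 pericyte markers averaged 7.03 to 8.03 in the WT lines and 6.22 and 6.43 in the NSCs. Rgs5, Kcnj8 and Abcc9 among them were not called. Their WT levels were 6.35 to 6.93, 6.31 to 6.95 and 6.18 to 6.88. Their NSC levels were 6.39 to 6.43, 6.33 to 6.61 and 5.98 to 6.33. Anpep, a peptidase of pericytes and fibroblasts, had 9.81, 8.03, 6.67 and 9.51 in the WT lines and 6.23 and 6.12 in the NSCs, high in lines 119 and 331 (adjusted p = 0.123, and 0.0115 without line 123), and Flt1 was not called (difference 0.54 ± 0.33, SE). The ependymal genes with the largest differences, Rsph1 (-0.34 ± 0.20) and Spef2 (-0.18 ± 0.14), overlapped between lines and NSCs. For Anpep the NSC mean lay under the 25th percentile.

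In neural crest and Schwann cells, 1 of 13 markers was called higher and 1 lower (15.4%, against 12% of all genes), with a median of 0.32. Pmp22, a myelin protein also made by fibroblasts, had 12.61, 12.22, 12.42 and 12.60 in the WT lines, against 11.95 and 11.87 in the NSCs (difference 0.55 ± 0.14, SE, adjusted p = 0.0497). The call was lost without line 119, 123 or 331 (adjusted p = 0.102, 0.0613 and 0.0856), without NSC 1 or 2 (adjusted p = 0.228 and 0.305). It was not called after centring (adjusted p = 0.0546), after quantile normalization (adjusted p = 0.0694) or in the fit of all 12 cell arrays (adjusted p = 0.42). The lower one was Cdh6, described above. The defining markers Sox10, Foxd3 and Ngfr averaged 6.89 to 7.18 in the WT lines and 6.997 and 7.14 in the NSCs. Tfap2b and Tfap2a, transcription factors of the neural crest, were uneven, with 10.28, 5.997, 6.07 and 7.52 for Tfap2b and 8.10, 7.07, 6.85 and 8.96 for Tfap2a in the WT lines, against 5.87 and 5.77 and 6.03 and 6.25 in the NSCs. Tfap2b was high in line 119 alone, and neither was called (adjusted p = 0.464 and 0.121). The NSC means of both lay under the 25th percentile.

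The WT lines also differed among themselves. In 111 of 19937 genes the range over the 4 lines was over 3 on the log2 scale, and in 1714 it was over 1. The genes in which 1 line lay more than 2 units from the nearest of the other 3 numbered 28 for line 119, 11 for line 120, 23 for line 123 and 27 for line 331. Each line is 1 array, so these differences have no replicate check, and the genes described next were chosen for their gaps. Line 119 was alone in Aldh1a2, which makes retinoic acid, with 11.29, 5.55, 5.68 and 5.93 in the WT lines and 5.57 and 5.73 in the NSCs, and in the methyltransferase Inmt, with 10.38, 5.40, 5.10 and 5.88 in the WT lines and 5.09 and 5.41 in the NSCs. Grpr, the receptor for gastrin-releasing peptide, and Gjb2, connexin 26, were also highest there, at 11.18, 7.81, 6.94 and 6.01 and 9.74, 5.98, 5.80 and 6.62 in the WT lines, against 5.51 and 5.70 and 5.06 and 5.96 in the NSCs. It was lowest in Edil3 (5.22, 8.72, 8.30 and 10.11 in the WT lines, 6.21 and 5.26 in the NSCs) and Nlrp2 (5.73, 8.57, 9.94 and 9.26 in the WT lines, 5.29 and 5.37 in the NSCs). Line 119 was also lowest in Adamtsl3 (6.12, 8.64, 9.30 and 8.62 in the WT lines, 7.75 and 7.83 in the NSCs) and Map2. Without line 119, Edil3, Nlrp2 and Adamtsl3 were called higher in the other 3 lines than in the NSCs (adjusted p = 0.0115, 0.00106 and 0.0323). The NSC means of Aldh1a2, Inmt, Grpr, Gjb2, Edil3 and Nlrp2 lay under the 25th percentile.

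Line 120 was apart in Trpm3, a cation channel, with 6.43, 9.86, 6.64 and 6.15 in the WT lines and 6.38 and 6.66 in the NSCs, and in Ldb2, with 6.74, 9.46, 6.87 and 6.30 in the WT lines and 9.05 and 8.03 in the NSCs. The Y-linked genes Eif2s3y and Uty were highest in line 120, at 7.09, 9.96, 5.57 and 7.15 and 6.37, 9.09, 5.15 and 6.43 in the WT lines, against 8.31 and 9.34 and 7.72 and 8.30 in the NSCs, and lowest in line 123. Line 120 was lowest in Tspan13 (9.46, 7.60, 9.54 and 9.13 in the WT lines, 10.94 and 10.32 in the NSCs) and Wnt5a (8.74, 6.80, 9.03 and 8.22 in the WT lines, 8.18 and 7.68 in the NSCs). The same held for the galectin Lgals9 (9.97, 7.89, 9.98 and 9.33 in the WT lines, 7.12 and 7.07 in the NSCs) and the basement membrane protein Nid1 (10.55, 9.18, 10.96 and 11.59 in the WT lines, 7.14 and 6.68 in the NSCs). Without line 120, Ldb2, Uty and Tspan13 were called lower (adjusted p = 0.0157, 0.0307 and 0.0197). Of these genes, Lgals9 and Nid1 were called higher against the NSCs (adjusted p = 0.0432 and 0.00696). Both calls were lost without NSC 1 (adjusted p = 0.239 and 0.0648) or NSC 2 (adjusted p = 0.254 and 0.092), and that of Lgals9 without line 119, 123 or 331 (adjusted p = 0.0728, 0.0646 and 0.0831). Lgals9 was not called under limma's trend and robust settings (adjusted p = 0.099).

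Line 123 stood above the others in Pdk4, a kinase that restrains pyruvate oxidation, with 8.72, 9.13, 11.89 and 8.94 in the WT lines and 6.39 and 6.86 in the NSCs. It was also highest in Flrt2, an adhesion protein, with 8.55, 9.77, 12.44 and 9.89 in the WT lines and 8.44 and 8.12 in the NSCs. In Crip2 and Cdh10 it was the 1 line near the NSC level, Crip2 having 6.46, 6.90, 9.57 and 6.19 in the WT lines and 9.11 and 8.64 in the NSCs. It was lowest in Mgp, Dcn and Cp, the copper carrier ceruloplasmin, which had 11.92, 11.51, 7.01 and 12.25 in the WT lines and 8.44 and 7.65 in the NSCs. It was also lowest in Raet1d, a ligand of the natural killer receptor NKG2D, with 7.72, 7.60, 4.42 and 9.47 in the WT lines and 9.19 and 8.87 in the NSCs. Without line 123, Pdk4 and Cp were called higher and Crip2 lower (adjusted p = 0.000703, 0.000505 and 0.00158). Lines 119 and 331 were the 2 highest, and line 123 the lowest, in Dcn, Mgp, Hgf, Mmp2 and Anpep. Line 331 was alone in P2ry10b (4.27, 5.33, 4.69 and 8.996 in the WT lines, 4.27 and 4.21 in the NSCs). It was also highest in Abi3bp (6.41, 7.28, 5.97 and 10.64 in the WT lines, 5.99 and 6.02 in the NSCs) and the peptidase Mme (5.51, 8.39, 6.62 and 11.53 in the WT lines, 5.28 and 5.19 in the NSCs). In H60b, another NKG2D ligand, it alone was at the NSC level (4.77, 5.06, 5.08 and 8.24 in the WT lines, 7.89 and 7.67 in the NSCs). It was lowest in Fndc3c1 (11.69, 12.04, 11.001 and 5.49 in the WT lines, 9.71 and 8.80 in the NSCs) and the adhesion molecule Cadm1 (10.58, 10.86, 10.67 and 6.81 in the WT lines, 9.61 and 9.35 in the NSCs). Sytl5 (10.07, 9.57, 9.23 and 5.84 in the WT lines, 6.32 and 5.84 in the NSCs) and the homeobox gene Meis1 (9.39, 9.19, 9.50 and 5.81 in the WT lines, 9.75 and 9.46 in the NSCs) were also lowest there. Without line 331, Fndc3c1, Cadm1 and Sytl5 were called higher (adjusted p = 0.0117, 0.00362 and 0.000684) and H60b lower (adjusted p = 0.000158). The NSC means of P2ry10b, Abi3bp, Mme and Sytl5 and the WT mean of H60b lay under the 25th percentile.

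**Figure D4:**
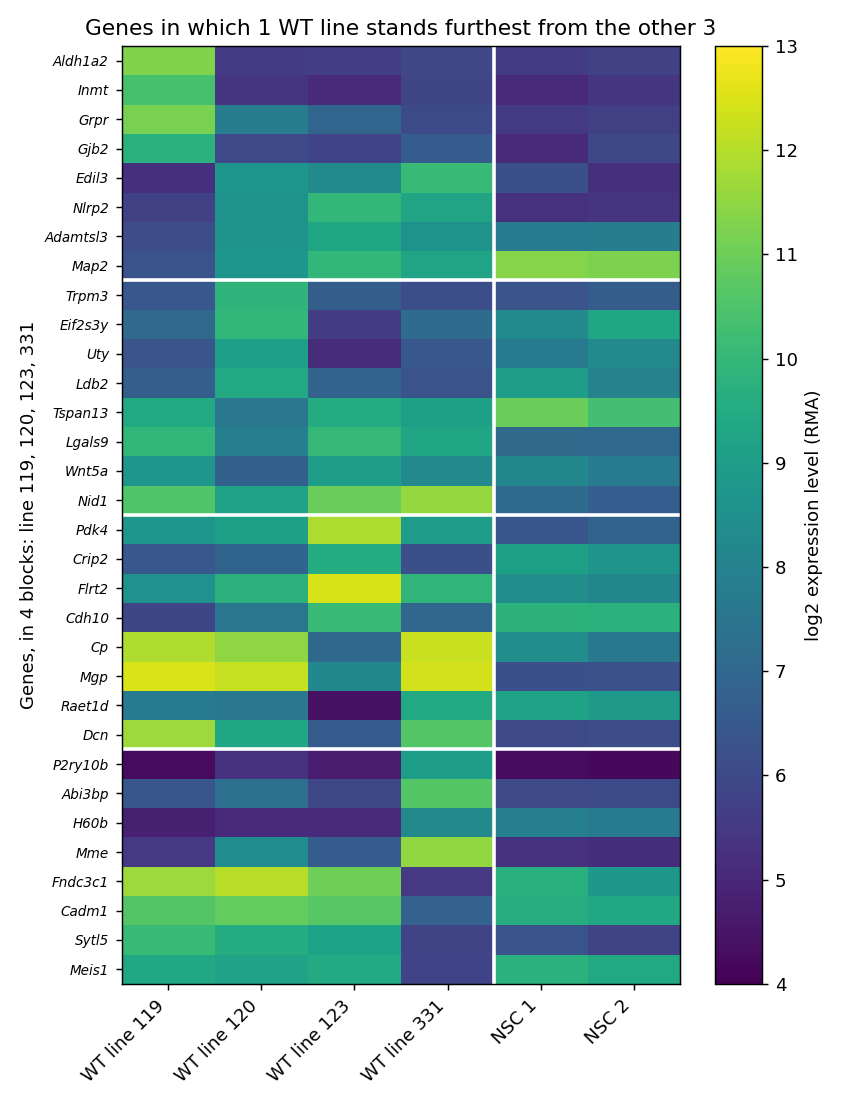
A heat map gives the log2 level of 32 genes in the 4 WT lines and the 2 NSC arrays, in blocks of 8 genes for which line 119, 120, 123 or 331 lay furthest above (first 4) or below (last 4) the nearest other line. Each block has 1 column that departs from the other 3 lines, and the NSCs share the level of the departing line in some genes (H60b) and that of the other 3 in others (Meis1).

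The comparison of the 4 WT with the 6 p53 mutant lines asked which genes differ between immortalized lines of either p53 label. The sets may differ in more than that label, which was not tested. The Y-linked Eif2s3y, for example, had 5.57 to 9.96 in the WT lines and 4.37 to 7.58 (median 4.44) in the mutant lines. Its difference of 2.47 ± 0.84 (SE) was not called by limma (adjusted p = 0.442). A WT and a mutant line correlated with an r of 0.952 to 0.983 over all genes in 24 pairs. In all, 4 genes were called by limma at an adjusted p under 0.05 (0.0201% of 19937), none of them a member of the gene lists, and 1701 had an unadjusted p under 0.05 (8.53%). In 1.69% of genes the WT and mutant lines did not overlap. Since both sets of lines share the NSC controls, the values of the 3 groups are given side by side.

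Sema3d, a secreted guidance protein, had 8.36, 7.77, 8.05 and 10.01 in the WT lines, 5.05 to 5.95 in the mutant lines and 5.99 and 5.72 in the NSCs, and was 2.96 ± 0.37 higher in WT than in mutant lines (SE, adjusted p = 0.0367). It was thus high in all 4 WT lines, and under the 25th percentile in all mutant lines and in the NSCs. Cpa6, a carboxypeptidase, had 6.92, 6.40, 6.37 and 6.59 in the WT lines, 5.02 to 5.71 in the mutant lines and 5.31 and 5.40 in the NSCs (difference 1.27 ± 0.15, SE, adjusted p = 0.023). Thbd, the anticoagulant receptor thrombomodulin, had 7.28, 6.99, 6.93 and 7.20 in the WT lines, 6.10 to 6.38 in the mutant lines and 6.86 and 7.30 in the NSCs (difference 0.87 ± 0.09, SE, adjusted p = 0.0164). The WT lines were at the NSC level and the mutant lines below it. Prkar2b, a regulatory subunit of protein kinase A, had 8.98, 9.54, 9.23 and 9.27 in the WT lines, 10.10 to 10.66 in the mutant lines and 8.68 and 8.47 in the NSCs (difference -1.23 ± 0.13, SE, adjusted p = 0.0164), with the WT lines between the NSCs and the mutant lines. Leaving out line 119 left 0 calls (1357 at an unadjusted p under 0.05), without line 331 there were 2, and without line 120 or 123 there were 7 and 10. Against the NSCs, Sema3d, Cpa6 and Prkar2b were called higher in the WT lines (adjusted p = 0.0228, 0.00423 and 0.0406). These calls were lost without NSC 1 (adjusted p = 0.147, 0.0633 and 0.155), for Sema3d and Prkar2b also without NSC 2 (adjusted p = 0.191 and 0.309) and for Prkar2b without line 120, 123 or 331 (adjusted p = 0.0679, 0.0564 and 0.0729). Sema3d was not called against the NSCs under limma's trend and robust settings (adjusted p = 0.0702), nor Prkar2b after quantile normalization (adjusted p = 0.0717). The NSC and mutant means of Cpa6 lay under the 25th percentile, which was 6.16 in the mutant lines. The sizes of the Sema3d and Cpa6 differences are therefore uncertain. The mutant mean of Thbd, 6.22, was just above it.

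**Figure D5:**
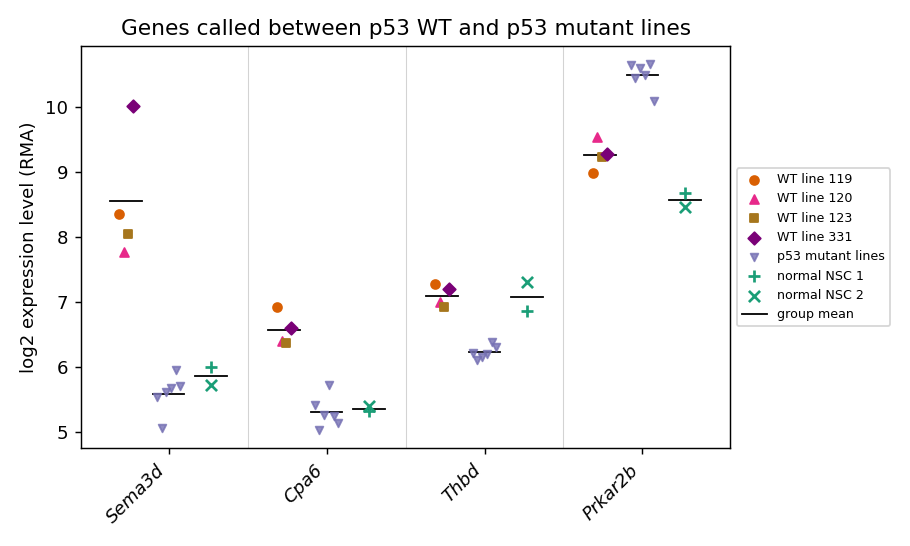
Log2 levels of the 4 genes called between WT and mutant lines are plotted for each WT line, each mutant line and each NSC array, with black bars for the group means. In each gene the 4 WT lines and the 6 mutant lines do not overlap, as their choice required, and Sema3d in line 331 stands above the other WT lines.

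For the genes that set the WT lines apart from the NSCs, the levels in the mutant lines are given beside them. Of the 12 largest increases, Anxa1 was at 11.82 to 13.07 and S100a6 at 12.20 to 12.61 in the mutant lines. Ptgs2 was at 11.02 to 12.78, Acta2 at 12.47 to 13.12, Thbs1 at 12.06 to 12.75 and Met at 9.79 to 10.95. The rest spread more between the mutant lines: Fgf7 at 8.55 to 12.31, Lox at 7.99 to 12.03 and Bgn at 8.51 to 12.36. Postn was at 7.55 to 10.92, Mgp at 9.50 to 12.65 and Osmr at 7.75 to 10.71. For the rest, the WT minus mutant difference was 0.42 (Mgp) to 1.80 (Bgn), and limma called none of them. Fabp7 was at 5.68 to 9.39 and Gpm6a at 5.36 to 5.82 in the mutant lines, so at least 1 mutant line kept a higher Fabp7 level than any WT line. Not called by limma between WT and mutant lines were Nes (-1.01 ± 0.43, SE, unadjusted p = 0.0381, adjusted p = 0.557), Sox2 (-0.83 ± 0.28, SE, unadjusted p = 0.0133, adjusted p = 0.442) and Mki67 (-0.57 ± 0.18, SE, unadjusted p = 0.00833, adjusted p = 0.419). An unadjusted p under 0.05 was seen in 8.53% of all genes. Lgals9, named above for a gap between lines, was 2.04 ± 0.35 higher in the WT lines (SE, unadjusted p = 0.000107, adjusted p = 0.194). It was not called either, and it had 6.97 to 7.42 in the mutant lines.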

How the data were processed

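The deposited values are log2 expression levels that the authors made with RMA from Affymetrix gene arrays, hybridized with biotin-labelled material from 100 ng of total RNA. Per the submitters' processing notes, GCOS, Affymetrix Expression Console and RMA were used, with no versions. The genome build behind the array is not given in the sources used here. Scanner files were not used here, and the number of arrays limits the precision.

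Of 34760 probe sets, 21640 were listed with 1 gene, 1321 with several and 11799 with none, and only the first kind was used. For each of 19937 genes the probe set with the highest mean over all 27 arrays was kept, which chose among several in 954 genes. Entrez IDs of 21553 probe sets matched RefSeq, and no symbol changed. The 4 WT lines were compared with the 2 NSC arrays, and with the 6 mutant lines, each in a fit of its own with lmFit and eBayes of limma 3.58.1 in R 4.3.3. A gene was called at a Benjamini-Hochberg adjusted p under 0.05. The test was tested on simulated data with known changes. Summaries used Python 3.11.15, pandas 2.3.3 and numpy 2.4.6, and plots matplotlib 3.10.9.

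The genes named were, among called genes, the 12 largest increases and the 12 largest decreases, up to 5 called and 2 other members of each of 30 lists by size of change, 16 fixed genes, for each WT line the 4 genes with the largest gap above and the 4 below the other lines, and the genes called between WT and mutant lines. The largest changes and the genes called between WT and mutant lines also had to show no overlap between the groups. The markers of cell types were a set of their own. Those outside the rule, such as Col1a1, Hes5, Rgs5 and Sox10, are given without SE and without the effect of leaving out an array. Other genes named outside this rule are marked as such. The members and the lists were chosen with earlier results of these data known. Alternatives changed the probe set of a gene, the low-level filter, the variance moderation, the scaling, the arrays in the fit, the threshold and the arrays left out.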

Additional observations from a re-analysis of the deposited data

Results flagged for a closer look

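In 27 of 239 named genes, 1 WT line stood apart from the other 3 by Dixon's ratio. Of the 239 genes, 32 had been chosen for such a gap, and 10 of the 27 are among them: Aldh1a2, Inmt, Trpm3, Pdk4, Cp, Mgp, H60b, Fndc3c1, Cadm1 and Meis1. Among the other 207 genes, 17 met the rule, which chance alone meets in about 1 group in 20. Many of those 207 were chosen for their difference from the NSCs, so these counts are a description.

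Line 119 stood apart in Aldh1a2 (11.29), Inmt (10.38), Peg3 (8.60), Nrg1 (9.95) and Tyms (9.67), where it was the highest line, and in S100a4 (9.38) and Gja1 (9.86), where it was the lowest. Line 120 was highest in Trpm3 (9.86), Nes (9.17) and Fzd6 (10.18) and lowest in S100a16 (6.95). Dixon's ratio takes no account of the size of a gap. The range over the 4 lines was 0.19 in Fzd6 and 0.22 in Tyms, against 3.71 in Trpm3. Line 123 was highest in Pdk4 (11.89), Ednrb (8.26), Ndn (7.56) and Gria2 (6.02). It was lowest in Cp (7.01), Mgp (8.21), Pdgfrb (9.22) and B2m (11.81). Line 331 was highest in Snai2 (11.08) and H60b (8.24). It was lowest in Msi1 (6.11), Mlc1 (5.89), Bmp4 (8.46), Fndc3c1 (5.49), Cadm1 (6.81) and Meis1 (5.81). Each line is 1 array, so a line and its array cannot be told apart.

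In 4 genes the change against the NSCs differed between WT and mutant lines, by the limma test of WT against mutant lines. The difference was 2.96 in Sema3d, where WT lines minus NSCs was 2.69 and mutant lines minus NSCs was -0.27. It was 1.27 in Cpa6 (1.22 in WT lines, -0.06 in mutant lines), 0.87 in Thbd (0.02 in WT lines, -0.85 in mutant lines) and -1.23 in Prkar2b (0.68 in WT lines, 1.91 in mutant lines).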

How the results depend on the processing

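The comparison of WT lines with NSCs gave 2390 calls and 2297 to 2706 under the other probe set choices, variance moderation, scalings and the fit of 12 arrays. Among the 9968 genes above the median level it gave 1974, of which 60.0% were higher, against 48.5% over all genes. A test against a 2-fold change gave 417. Leaving out 1 array gave 816 to 2823, the lowest without NSC 1, then 904 without NSC 2, of which 37.8% were higher. The median of all genes was -0.01 as reported, 0.01 after centring and 0.00 after quantile normalization. WT against mutant lines gave 4 calls, 1 above the median level (of fewer genes tested), 8 in the fit of 12 arrays and 0 to 10 leaving out a WT line (0, 7, 10 and 2 without lines 119, 120, 123 and 331). The causes were not tested.

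Some small differences changed sign. Gfap turned to 0.0148 after centring and 0.0478 after quantile normalization, and was -0.17 to 0.16 leaving out 1 array. Leaving out 1 array gave -0.13 to 1.22 for Cadm1 (negative without line 119, 120 or 123), -0.20 to 0.24 for Thbd in WT lines minus NSCs (negative without line 119, line 331 or NSC 1) and -0.43 to 0.85 for Gria1 (negative without line 120). It gave -0.11 to 1.12 for Trpm3 (negative without line 120) and -0.0093 to 0.735 for Wnt5a (negative without line 123). None of the values that turned was called. Of the named genes called against the NSCs, 65 were not called in the test against a 2-fold change. Genes not called that were called in the fit of 12 arrays were Phlda3, Ppm1d, Msi1, S100b, Thbs2, Actg2, Tgfbr3, Fzd3, Mmp2, Irf1, Mvd, Peg3, Anpep, Tspan13 and Pdk4. Among genes above the median level these were Actg2, Lama2, Il33, Irf1, Ifitm3 and Pdk4, and after quantile normalization Ppm1d, Kif11, Irf1 and Mvd. No paired analysis was possible because the WT lines and the NSCs share no replicate number in the labels. Levels under the 25th percentile have no detection call, which limits the size of changes that end there.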
